A study of Homo sapiens with 6 samples.

Results

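The genes described are those of the mitochondrial ribosomal proteins, taken as every row of the count table whose name begins with MRPL or MRPS followed by a number, with or without a final A, B or C. The rule found 78 of the 56505 rows and used no measured value. RNA was sequenced from cells that the labels give as MDA-MB-468, a human line from a triple-negative breast cancer, labelled as carrying either a short hairpin RNA against cytokeratin 5 (labelled shCK5-22, here shCK5, 3 libraries) or the control hairpin vector pLK0-shControl (here shControl, 3 libraries). Cells of both groups were grown in Dulbecco's medium with fetal bovine serum and received no further treatment. The group labelled shCK5 has 1 hairpin, and the labels do not say whether the 3 libraries of a group are separate cultures, so each p-value reflects library-to-library spread alone, possibly only technical.

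Mitochondria make a small set of respiratory chain subunits on their own ribosome, which sits at the inner membrane. Its RNAs are encoded in mitochondrial DNA, but all of its proteins are encoded in the nucleus, made on cytosolic ribosomes and imported. The MRPL proteins belong to the large subunit, which forms peptide bonds, and the MRPS proteins to the small subunit, which reads the messenger RNA. Many descend from bacterial ribosomal proteins and the others are found in mitochondria only. Names and places do not always match: MRPS18A and MRPS30 sit in the large subunit, and MRPS36 is an adaptor of the 2-oxoglutarate dehydrogenase complex and not a ribosome subunit.

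The libraries held 83594772, 80052613 and 75460940 counts in shCK5 and 71272253, 75529699 and 68810882 counts in shControl. KRT5, the gene of cytokeratin 5, had 17.2, 15.5 and 16.5 CPM (counts scaled to 1000000 per library) in shCK5, against 2055, 2059 and 2017 CPM in shControl. RB1 and SMAD4, which are deleted in MDA-MB-468, had mean levels of 101 CPM and 16.9 CPM in shCK5 and of 2.00 CPM and 0.235 CPM in shControl, so the shCK5 libraries go against their cell line label at these genes. Every fold change below compares libraries by their labels, and an effect of the hairpin and a difference between cell lines cannot be told apart. All 7 epithelial markers examined were lower in shCK5, with summed levels of 1200 to 1216 CPM in shCK5 and 6361 to 6520 CPM in shControl. All 6 mesenchymal markers were higher, with summed levels of 1309 to 1327 CPM in shCK5 and 55.9 to 59.7 CPM in shControl. Fibroblast markers summed to 12.1 to 14.1 CPM in shCK5 and 13.3 to 13.9 CPM in shControl, with PDGFRB higher, COL1A1 lower and 4 of the 6 not tested, among them DCN with no count in shCK5. Leukocyte markers summed to 0.734 to 1.03 CPM in shCK5 and 4.98 to 6.12 CPM in shControl, with PTPRC and CD14 lower and CD3E at 0 in shCK5. Endothelial markers summed to 5.81 to 6.74 CPM in shCK5 and 4.01 to 5.62 CPM in shControl, with PECAM1 and KDR higher and CDH5 and VWF lower. The part of these differences in the values below was not tested. In RNA from whole cultures, fewer cells of a type and less RNA per cell cannot be told apart.

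Promoter sequences are shown because the genes of this ribosome lie on 21 chromosomes and have no common locus, so the start-site region is where they can be compared. RefSeq (build GRCh38.p14) gave a window of 250 bases before to 50 bases after the first-listed start site for 69 of the 78 genes. Both strands were searched for CCGGAAG, a core bound by GABP and other ETS factors, for GCGCA and GCGC with any 1 base between them, a core bound by NRF1, and for AAGATGGCG, a core bound by YY1. These factors are known regulators of nuclear genes for mitochondrial proteins. CCGGAAG was found in 29 of the 69 windows (42%), against 10.7% of all 27305 windows and 16.6% of the 11528 windows of genes tested here. AAGATGGCG was found in 13 windows (18.8%), against 1.85% of all windows and 3.3% of those of tested genes. The NRF1 core was found in 8 windows (11.6%), against 6.28% and 10.1%. A match is a string of letters and not a measured binding site.

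The 6 sequences below belong to the 3 genes with the largest increases and the 3 with the largest decreases in shCK5 among those with CCGGAAG within 120 bases before to 30 bases after the start site. Each is 150 bases long and written 5′ to 3′ on the strand of the gene. Capitals mark CCGGAAG or its reverse complement and, in MRPS10 only, also AAGATGGCG. The windows are chr6:42217832-42217981 (minus strand), chr10:100987468-100987617 (minus), chr17:50373155-50373304 (minus), chr1:150293741-150293890 (plus), chr20:3045932-3046081 (plus) and chr7:141014923-141015072 (minus), in the order shown.
MRPS10: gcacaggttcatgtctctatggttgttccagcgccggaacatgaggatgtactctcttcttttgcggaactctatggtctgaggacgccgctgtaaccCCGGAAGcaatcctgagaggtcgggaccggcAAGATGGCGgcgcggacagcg
MRPL43: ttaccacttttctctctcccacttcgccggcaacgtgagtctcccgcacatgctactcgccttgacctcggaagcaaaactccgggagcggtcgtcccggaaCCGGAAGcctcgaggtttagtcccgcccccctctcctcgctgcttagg
MRPL27: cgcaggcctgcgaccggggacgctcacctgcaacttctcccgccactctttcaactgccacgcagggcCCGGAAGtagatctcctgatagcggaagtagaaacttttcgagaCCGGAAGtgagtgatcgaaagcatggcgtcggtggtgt
MRPS21: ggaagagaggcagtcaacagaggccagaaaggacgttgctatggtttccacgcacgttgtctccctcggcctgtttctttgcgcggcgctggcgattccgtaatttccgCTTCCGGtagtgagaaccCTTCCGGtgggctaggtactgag
MRPS26: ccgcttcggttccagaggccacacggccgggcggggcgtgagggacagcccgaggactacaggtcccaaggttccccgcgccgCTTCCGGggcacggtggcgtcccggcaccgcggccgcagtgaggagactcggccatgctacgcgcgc
MRPS33: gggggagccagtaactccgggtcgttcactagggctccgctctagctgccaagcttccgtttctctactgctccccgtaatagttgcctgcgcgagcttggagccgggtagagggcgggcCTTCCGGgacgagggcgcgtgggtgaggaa
In MRPS10 the first base of CCGGAAG lies at -22 and that of AAGATGGCG at 10, counted from the start site as 1. MRPL27 carries 2 copies, at -52 and -8, and MRPS21 carries 2 in the reverse direction, at -11 and 8. CCGGAAG was present in 11 of 27 windows of the genes higher in shCK5 (40.7%) and in 10 of 22 windows of those lower (45.5%). Over all called genes with a window, the motif was thus found in genes that rose and in genes that fell. The 6 sequences were chosen for carrying it, so they do not show how often it occurs among the largest changes.

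The mitochondrial ribosomal protein genes did not move as one block. Of the 63 that passed the filter on low counts, 32 were higher in shCK5, 23 were lower and 8 did not pass the threshold (edgeR's quasi-likelihood test, Benjamini-Hochberg adjusted p at or under 0.05). Those counts amount to 87.3% called, 50.8% higher and 36.5% lower. Over all 19567 genes tested, 82.7% were called, with 40.9% higher and 41.7% lower, all as shares of the genes tested. Among the 5853 genes at the levels of the middle of the members' range (14.4 to 78.3 CPM), 91.0% were called, 50.9% higher and 40.1% lower. The members' shares lay near those of genes at their level. The 63 genes are those with enough counts, and they are not all members.

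Changes of the ribosomal protein genes were mostly small. Their median log2 fold change was 0.12, with quartiles of -0.35 and 0.63, against a median of -0.02 over all genes tested and 0.12 in the level-matched genes. Differences beyond 2-fold were called for 7 genes higher and 3 lower, or 15.9% of those tested, against 44.0% of all genes tested and 31.4% of the level-matched genes. The 3 libraries of shCK5 and the 3 of shControl did not overlap in 56 of the 63 genes (88.9%), against 84.2% of all genes tested and 91.7% of the level-matched genes. With library size alone as the scaling the members split into 23 higher and 30 lower with a median of -0.02, and all genes into 7167 higher and 9118 lower. That scaling moved the median of all genes to -0.16, so the members' median stayed above it. The balance of higher against lower therefore depends on the scaling. Summed over the members, levels were 3040, 3063 and 3018 CPM in shCK5, against 2853, 2889 and 2893 CPM in shControl. As a share of the counts of nuclear genes with no scaling factor, the sum was 0.316%, 0.318% and 0.314% in shCK5, against 0.334%, 0.340% and 0.338% in shControl, which is the opposite order.

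**Figure D1:**
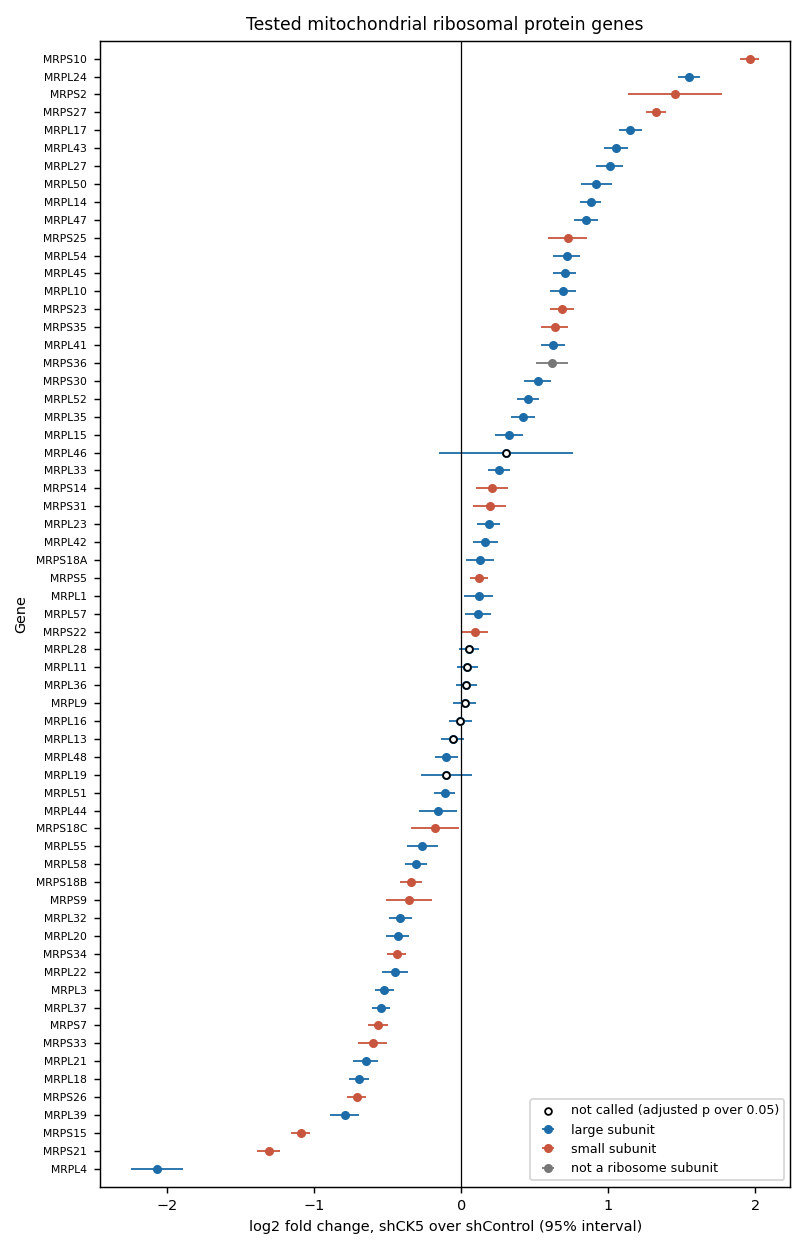
Log2 fold change of each of the 63 tested genes, shCK5 over shControl, with its 95% interval from edgeR's quasi-likelihood fit. Blue, red and grey points are large subunit, small subunit and non-ribosomal members, and open points did not pass an adjusted p of 0.05. Genes of both subunits stand at both ends, from MRPS10 at 1.96 to MRPL4 at -2.07.

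Both subunits held genes called in each direction, as did all genes tested (40.9% higher and 41.7% lower). Among large subunit genes 21 of 43 tested were higher, 14 lower and 8 not called, with a median log2 fold change of 0.12. Among small subunit genes 10 of 19 were higher and 9 lower, with a median of 0.09. Changes beyond 2-fold were called for 26.3% of the small subunit genes tested and 11.6% of the large subunit genes tested, and the difference between the subunits was not tested. Genes with a bacterial homologue (34 tested) had a median of 0.04, with 15 higher and 12 lower. Genes specific to mitochondria (28 tested) had a median of 0.14, with 16 higher and 11 lower. MRPS36, the dehydrogenase adaptor, had a log2 fold change of 0.62 (SE 0.05).

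Increases were led by proteins of both subunits. MRPS10, the mitochondrial homologue of bacterial S10 (chr6:42206801-42217865, minus strand), had 167.1, 169.4 and 165.5 CPM in shCK5, against 41.9, 43.7 and 43.4 CPM in shControl. The groups lay far apart, and the log2 fold change was 1.96 (SE 0.03, edgeR's Benjamini-Hochberg adjusted p = 4.06e-26). It was the largest increase of the 63 genes. MRPL24, whose bacterial homologue L24 starts the assembly of the large subunit (chr1:156737303-156741590, minus strand), had 76.3, 78.1 and 75.2 CPM in shCK5, against 26.4, 26.4 and 25.7 CPM in shControl. All shCK5 libraries were higher, with a log2 fold change of 1.55 (SE 0.04, edgeR's adjusted p = 1.781e-22). MRPS27, a pentatricopeptide repeat protein found in the mitochondrial small subunit only (chr5:72219409-72320646, minus strand), had 107.5, 108.4 and 107.8 CPM in shCK5, against 42.1, 44.3 and 42.8 CPM in shControl. Its log2 fold change was 1.32 (SE 0.03, edgeR's adjusted p = 4.059e-22), with no overlap of the groups.

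The other 5 of the 8 largest increases were MRPS2, MRPL17, MRPL43, MRPL27 and MRPL50. MRPS2, the homologue of bacterial S2, was low, with 3.36, 3.92 and 3.66 CPM in shCK5 against 1.68, 1.22 and 1.10 CPM in shControl. Its groups did not overlap, but its error was the largest of the 8 (log2 fold change 1.45, SE 0.15), and 14.4% of its exon bases are shared with other genes, among them C9orf116, whose log2 fold change was 0.90. MRPL17 had 101.8, 101.5 and 95 CPM in shCK5, against 42.7, 46.9 and 45 CPM in shControl. MRPL27, whose bacterial homologue L27 reaches to the peptidyl transferase centre, had 39.6, 39.4 and 41.9 CPM in shCK5, against 20.4, 19.6 and 20.2 CPM in shControl. Both were about doubled without overlap of the groups, with log2 fold changes of 1.15 (SE 0.04) and 1.01 (SE 0.04). MRPL43 averaged 51.3 ± 0.61 CPM in shCK5 and 24.7 ± 0.43 CPM in shControl (SD, n = 3 each), and MRPL50 averaged 31.8 ± 1.3 CPM in shCK5 and 16.8 ± 0.99 CPM in shControl. MRPL43 shares 36.9% of its exon bases with SEMA4G and TWNK on the other strand. SEMA4G had no count in any library, and TWNK, the mitochondrial DNA helicase, had a log2 fold change of 0.35.

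**Figure D2:**
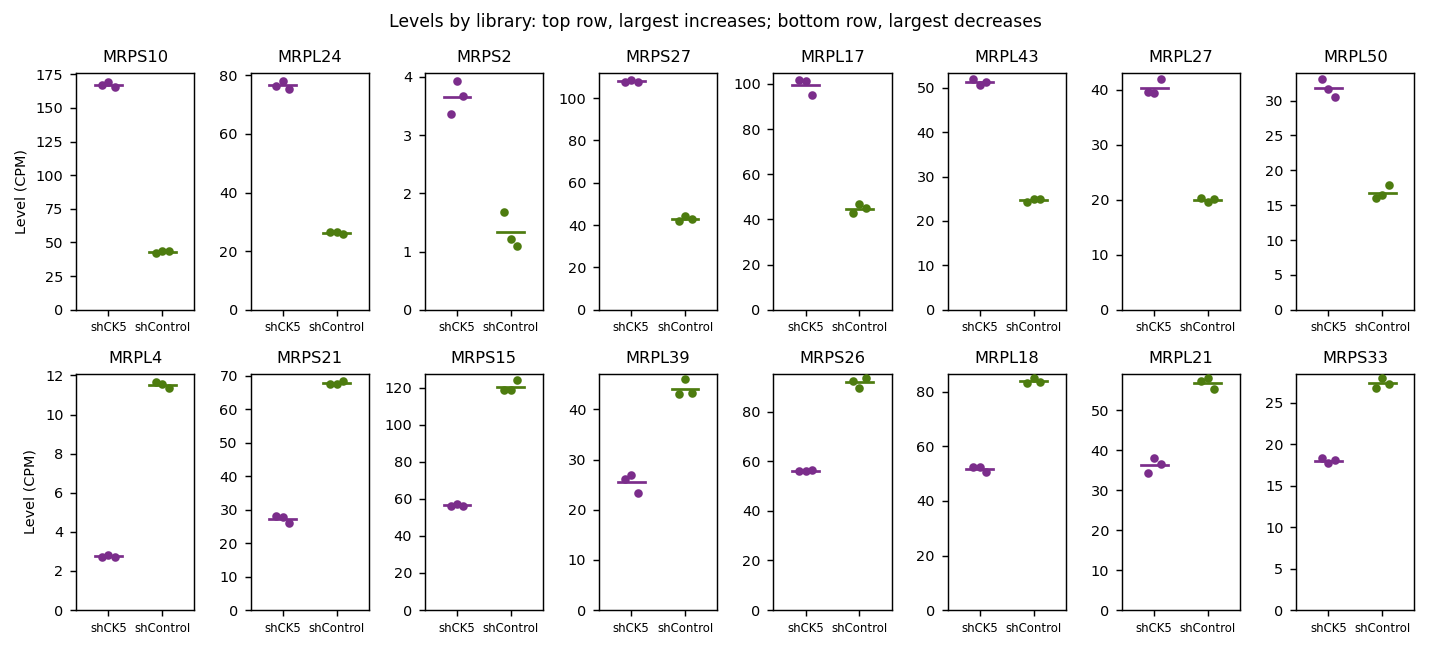
Level in CPM in each library for the 8 genes with the largest increases (top) and the 8 with the largest decreases (bottom), shCK5 in purple and shControl in green. Points are libraries and lines are means of 3, and each axis starts at 0. In none of the 16 genes do the libraries of the groups overlap, but the genes were picked by fold change among those called. Groups also did not overlap in 84.2% of all genes tested and 91.7% of the level-matched genes.

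Decreases were led by MRPL4, the homologue of bacterial L4, which lines the exit tunnel (chr19:10251901-10260045, plus strand). It had 215, 213 and 197 counts in shCK5, against 868, 922 and 814 counts in shControl, or 2.74 ± 0.045 CPM in shCK5 and 11.5 ± 0.16 CPM in shControl (SD, n = 3 each). The log2 fold change was -2.07 (SE 0.08, edgeR's Benjamini-Hochberg adjusted p = 1.808e-17), the largest change of any member in either direction. Antisense genes share 21.4% of its exon bases. MRPS21, the homologue of bacterial S21 (chr1:150293720-150308979, plus strand), had 28.1, 27.9 and 26.1 CPM in shCK5, against 67.5, 67.7 and 68.6 CPM in shControl. MRPS15, the homologue of S15, an early binder of bacterial 16S rRNA (chr1:36455718-36464437, minus strand), had 55.9, 57.3 and 56.3 CPM in shCK5, against 118.6, 118.8 and 124.2 CPM in shControl. Both fell in all shCK5 libraries, with log2 fold changes of -1.31 (SE 0.04, edgeR's adjusted p = 1.742e-20) and -1.09 (SE 0.03, edgeR's adjusted p = 1.146e-20).

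The next 5 decreases were smaller than 2-fold. MRPL39, found in mitochondria only, averaged 25.5 ± 1.8 CPM in shCK5 and 44.1 ± 1.6 CPM in shControl (SD, n = 3 each), a log2 fold change of -0.79 (SE 0.05). MRPS26, a mitochondria-specific protein of the small subunit, averaged 56.1 ± 0.25 CPM in shCK5 and 91.8 ± 2.0 CPM in shControl. MRPL18 averaged 51.8 ± 1.1 CPM in shCK5 and 83.9 ± 0.99 CPM in shControl. These 3 and the following 2 had no overlap between groups. MRPL21 averaged 36.3 ± 1.9 CPM in shCK5 and 57.0 ± 1.4 CPM in shControl, and MRPS33 averaged 18.03 ± 0.34 CPM in shCK5 and 27.4 ± 0.61 CPM in shControl.

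Proteins with a known place or task gave calls in both directions. In the stalk of the large subunit, which recruits translation factors, MRPL10 had 39.66, 41.97 and 40.99 CPM in shCK5, against 25.5, 26.1 and 24.2 CPM in shControl, a log2 fold change of 0.69 (SE 0.04, edgeR's adjusted p = 1.369e-13). MRPL11, at the base of the stalk, had 66.2, 65.4 and 64.2 CPM in shCK5, against 65.8, 62.5 and 62.1 CPM in shControl. Its groups overlapped, and its log2 fold change of 0.04 (95% interval -0.03 to 0.11) did not pass the threshold. MRPL12, the third stalk protein, had no count in any library. MRPL45, which anchors the ribosome to the inner membrane, averaged 60.5 ± 1.3 CPM in shCK5 and 37.2 ± 1.3 CPM in shControl (SD, n = 3 each; log2 fold change 0.70, SE 0.04). MRPL58, a large subunit protein with peptidyl-tRNA hydrolase activity that frees stalled chains, averaged 43.4 ± 1.3 CPM in shCK5 and 53.8 ± 1.4 CPM in shControl (log2 fold change -0.31, SE 0.04). MRPS22, in which variants cause mitochondrial disease, had 44.6, 39.5 and 41.3 CPM in shCK5, against 39.2, 39.5 and 38.8 CPM in shControl. Its groups overlapped, and its call (edgeR's adjusted p = 0.04933) was lost with library size alone, where its log2 fold change was -0.04, and with the replicate number as a block (edgeR's adjusted p = 0.05484). It was also lost with DESeq2, with a stricter filter, without shCK5 replicate 1 (edgeR's adjusted p = 0.2482) and without any 1 of the 3 shControl libraries (0.05296 to 0.1155).

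The MRPS18 paralogs, which go to different places on the ribosome, had calls in both directions. MRPS18A had 28.98, 29.8 and 27.7 CPM in shCK5, against 26.6, 27.1 and 25.6 CPM in shControl, a log2 fold change of 0.13 (SE 0.05, edgeR's adjusted p = 0.01439) that was -0.01 under library size alone. The call of MRPS18A was also lost without shCK5 replicate 2 (edgeR's adjusted p = 0.05185), without shControl replicate 3 (0.06998) and with the stricter filter (0.08345). MRPS18B had 64.8, 71.4 and 65.2 CPM in shCK5, against 87.0, 84.0 and 84.6 CPM in shControl, a log2 fold change of -0.34 (SE 0.04, edgeR's adjusted p = 3.469e-09). MRPS18C, the closest to bacterial S18, averaged 7.50 ± 0.34 CPM in shCK5 and 8.49 ± 0.45 CPM in shControl (SD, n = 3 each). Its log2 fold change of -0.18 (SE 0.08, edgeR's adjusted p = 0.03681) was the smallest decrease called among the paralogs, and its call was lost without a filter, with DESeq2, without any 1 of the 3 shCK5 libraries and without shControl replicate 2 (edgeR's adjusted p = 0.1743 without shCK5 replicate 1 and 0.1524 without shControl replicate 2). MRPS18B had the widest gap between groups. MRPS18A shares 47% of its exon bases with RSPH9 on the other strand, whose log2 fold change was -1.26. MRPS18C shares 40.2% with ABRAXAS1 on the other strand, and MRPS18B shares none. The part of shared exons in these values was not tested.

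Levels per length showed how the changes reordered the genes. Dividing CPM by the length in kilobases of the principal transcript, MRPL33 was highest in shCK5, with 137, 131 and 140 CPM per kilobase, against 111, 119 and 112 CPM per kilobase in shControl. MRPS34, highest in shControl, had 96.8, 92.3 and 91.2 CPM per kilobase in shCK5, against 131, 123 and 126 CPM per kilobase in shControl. The groups did not overlap for either gene, and the order of the pair was reversed between them. MRPL24 stood at place 3 of 63 in shCK5 with a level of 86.7 ± 1.6 CPM per kilobase, and at place 28 in shControl with 29.6 ± 0.47 CPM per kilobase (SD, n = 3 each). MRPS10 stood at place 6 in shCK5 and place 40 in shControl, while MRPS15 stood at place 14 in shCK5 and place 2 in shControl. MRPL37, at place 3 in shControl, had a level of 79.7 ± 1.7 CPM per kilobase in shCK5 and 117 ± 1.9 CPM per kilobase in shControl. The top of the order was therefore held by partly different genes in the groups. At the bottom, MRPL46 had a level of 1.26 ± 0.28 CPM per kilobase in shCK5 and 1.02 ± 0.22 CPM per kilobase in shControl, with overlapping groups. MRPL19 had 1.69 ± 0.064 CPM per kilobase in shCK5 and 1.81 ± 0.035 CPM per kilobase in shControl. Both genes stood at the bottom in both groups. MRPS2 was lowest in shControl, with a level of 0.812 ± 0.19 CPM per kilobase, against 2.23 ± 0.17 CPM per kilobase in shCK5. MRPL4 was among the lowest 3 in shCK5, with a level of 1.88 ± 0.031 CPM per kilobase in shCK5 and 7.92 ± 0.11 CPM per kilobase in shControl. Over the 63 genes log2 levels per length correlated between the groups with Pearson's r of 0.904. Each gene's levels in both groups are divided by the same length, which can raise r. It is a description and does not tell how much of the order was common to both.

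The 8 genes not called were all of the large subunit: MRPL19, MRPL13, MRPL16, MRPL9, MRPL36, MRPL11, MRPL28 and MRPL46. Of the large subunit genes tested 81.4% were called, against 82.7% of all genes tested and 91.0% of the level-matched genes. With library size alone as the scaling the first 7 were called lower, so their lack of a call depends on the scaling. For the first 7 the log2 fold changes lay between -0.10 and 0.05. MRPL46 averaged 1.28 ± 0.29 CPM in shCK5 and 1.04 ± 0.22 CPM in shControl (SD, n = 3 each). Its log2 fold change was 0.30 with a 95% interval of -0.15 to 0.76, so a difference of that size was not detectable at its low count. MRPL46 shares 11.3% of its exon bases with AC013489.1 on the same strand, and the cause of its low count was not tested. A p that misses the threshold does not show that these levels were the same.

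For 15 of the 78 genes the table gave no usable value. No count stood in any library for MRPL12, MRPL2, MRPL30, MRPL34, MRPL38, MRPL40, MRPL49, MRPS11, MRPS12, MRPS16, MRPS17 and MRPS24. MRPS12 is the homologue of the bacterial decoding-centre protein S12. MRPL53, MRPS6 and MRPS28 had 6, 15 and 28 counts over the 6 libraries together and did not pass the filter. Each is listed as it stands and is not read as lack of expression. In GENCODE v29, 11 of the 12 genes at 0 share exon bases with another gene, 6 of them on the same strand, with a median share of 15.6%. MRPL40 was the exception, with none. All 3 genes with few counts share exon bases, whereas 27 of the 63 tested genes do, with a median share of 0%. Some genes that share exons with those at 0 were well counted: FAU and SYVN1, beside MRPL49, averaged 155 and 93.1 CPM in shCK5 against 218 and 90.8 CPM in shControl. SARS2, beside MRPS12, averaged 0.180 CPM in shCK5 and 0.201 CPM in shControl. How the authors treated reads in shared exons was not stated, and the part of shared exons in these counts was not tested. Among the 36 tested genes with no shared exon base, 20 were higher, 14 lower and 2 not called, with a median log2 fold change of 0.16. Over all genes tested 40.9% were higher and 41.7% lower, and in the level-matched genes 50.9% and 40.1%.

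The fold changes of these genes correlated with those of the nearest other tested genes on the chromosome. This comparison was chosen after values had been seen. For 62 members the median log2 fold change of the 10 nearest other tested genes on each side was taken, with no mitochondrial ribosomal protein gene among them. It correlated with the member's own log2 fold change with Pearson's r of 0.744 and Spearman's rho of 0.763, and the signs matched in 51 of 62 genes (82.3%). These are descriptions across genes that share the same 6 libraries, and windows of nearby members overlap. The same measure gave r of 0.516 for 70 cytosolic ribosomal protein genes (67.1% same sign), 0.649 for 53 respiratory chain genes (71.7%), 0.278 for 5435 genes at the members' levels (66.8%) and 0.254 for 15723 tested genes (63.7%). The difference between these sets was not tested. With 5 genes on each side r was 0.554, and with 20 it was 0.712. With 10 on each side the farthest gene lay a median of 1.75 megabases from the member, and up to 9.65 megabases (MRPL19). Without members that share an exon r was 0.710 over 35 genes. Of 30 members whose log2 fold change lay beyond 0.5 in either direction, 29 had a neighbour value (MRPL41 did not), and 28 of those had the sign of their neighbours (96.6%). Beyond the same size, signs matched for 71.4% of 3177 genes at the members' levels and 66.2% of 10486 tested genes. That share was not computed for the cytosolic ribosomal protein and respiratory chain genes, so it is not shown to be particular to the members.

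Single members gave examples. MRPS27 (log2 fold change 1.32) had neighbours with a median of 1.16, of which 17 of 20 were above 0, and MRPL17 (1.15) had neighbours with a median of 1.13. MRPS10 (1.96) had neighbours with a median of 0.80. MRPL4 (-2.07) had neighbours with a median of -1.33, of which 1 of 20 was above 0. MRPL39 (-0.79) had neighbours with a median of -1.63, the farthest 7.79 megabases away. MRPL24 (1.55) was the exception among strongly changed genes, with a neighbour median of -0.02, and MRPS21 (-1.31) had neighbours with a median of -0.09. On chromosome 17 MRPL45, MRPL10, MRPL27 and MRPS23 were higher, while MRPS7 and MRPL58, which lie farther along the same chromosome, were lower. All 3 tested members on chromosome 9 were higher, and of 8 on chromosome 1 there were 2 higher, 5 lower and 1 not called. Over all genes tested 40.9% were higher and 41.7% lower. The shares over all genes of single chromosomes were not computed, so these few members describe no chromosome. DNA was not measured in these data.

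**Figure D3:**
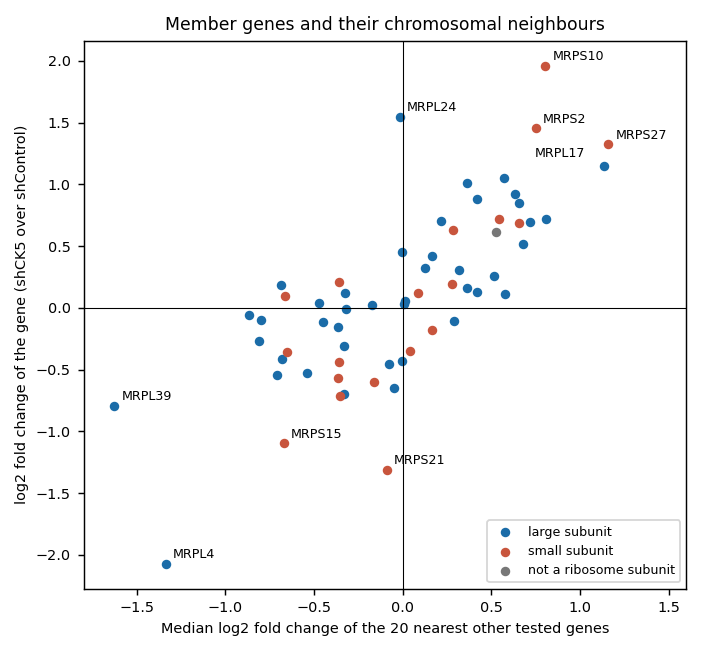
Log2 fold change (shCK5 over shControl) of 62 members against the median log2 fold change of the 20 nearest other tested genes. Blue, red and grey points are large subunit, small subunit and non-ribosomal members. Most points fall at the lower left and upper right, and MRPL24 lies at a neighbour median of -0.02.

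Other genes of mitochondrial translation also had members called in each direction, as did all genes tested (40.9% higher and 41.7% lower). The shares of the lists below stand beside those. Of 6 further genes listed with the ribosome, PTCD3, CHCHD1 and DAP3 rose, with log2 fold changes of 0.52, 0.26 and 0.16, and 3 were not called. Among those 3 was OXA1L, an inner-membrane insertase and not a ribosome subunit. Under library size alone 3 of the 6 were called lower, so the direction of this list depends on scaling. Of 25 tested genes for ribosome assembly and rRNA modification 15 were higher (60%) and 10 lower (40%), with a median of 0.19. They ranged from NSUN4, an rRNA methyltransferase, at -0.92 and its partner MTERF4 at -0.83 to the GTPases GTPBP10 at 1.59 and GTPBP6 at 1.66. Of 17 tested genes in the list of translation factors 11 were higher (64.7%) and 3 lower (17.65%), with a median of 0.36. The list also holds genes that are not translation factors. Among these, SLIRP was lower, LRPPRC was not called, and MTFMT, HEMK1 and METAP1D were higher. The elongation factors TSFM and GFM1 were at -0.25 and -0.20. C12orf65, a release factor homologue, was at 0.95 and TACO1, a translational activator of cytochrome oxidase subunit 1, at 1.01. Of 18 tested genes in the list of mitochondrial aminoacyl-tRNA synthetases, 12 were lower (66.7%) and 5 higher (27.8%), with a median of -0.34. Synthetases charge transfer RNAs. The list also holds QRSL1 and GATB, both lower, and GATC, higher, which are subunits of an amidotransferase and not synthetases. RARS2 averaged 26.3 ± 0.79 CPM in shCK5 and 97.6 ± 3.5 CPM in shControl (SD, n = 3 each; log2 fold change -1.89). WARS2 was at -1.37, YARS2 at 0.59 and LARS2 at 1.02.

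Counted levels of the RNA partners of these proteins were lower in shCK5. How RNA was selected for the libraries is not described here, and its part in the rRNA counts was not tested. MT-RNR2, the rRNA of the large subunit, averaged 5304 ± 189 CPM in shCK5 and 9068 ± 214 CPM in shControl (SD, n = 3 each; log2 fold change -0.77). MT-RNR1, the rRNA of the small subunit, averaged 1127 ± 58.8 CPM in shCK5 and 1284 ± 96.5 CPM in shControl (log2 fold change -0.19, edgeR's adjusted p = 0.0001339), with overlapping groups. Of the 15 mitochondrially encoded rRNAs and mRNAs 11 were lower (73.3%) and 4 higher (26.7%), with a median of -0.24. They ranged from MT-ND6 at -1.14 and MT-ND5 at -0.78 to MT-ND3 at 0.83 and MT-ND2 at 1.22. Of 13 genes for mitochondrial DNA transcription and replication 9 were higher (69.2%) and 3 lower (23.1%), with a median of 0.50. The range went from RNASEH1 at -0.81 and TOP1MT at -0.65 to TOP3A at 1.05 and the polymerase subunit POLG2 at 1.62. Among 11 regulators of mitochondrial biogenesis 7 were higher (63.6%) and 4 lower (36.4%). PPARGC1B was at -1.16, the ETS factor subunit GABPA at -0.71, TFE3 at 1.30 and PPARGC1A at 2.31. The levels of PPARGC1A were low, 2.09 ± 0.17 CPM in shCK5 and 0.418 ± 0.20 CPM in shControl (SD, n = 3 each).

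**Figure D4:**
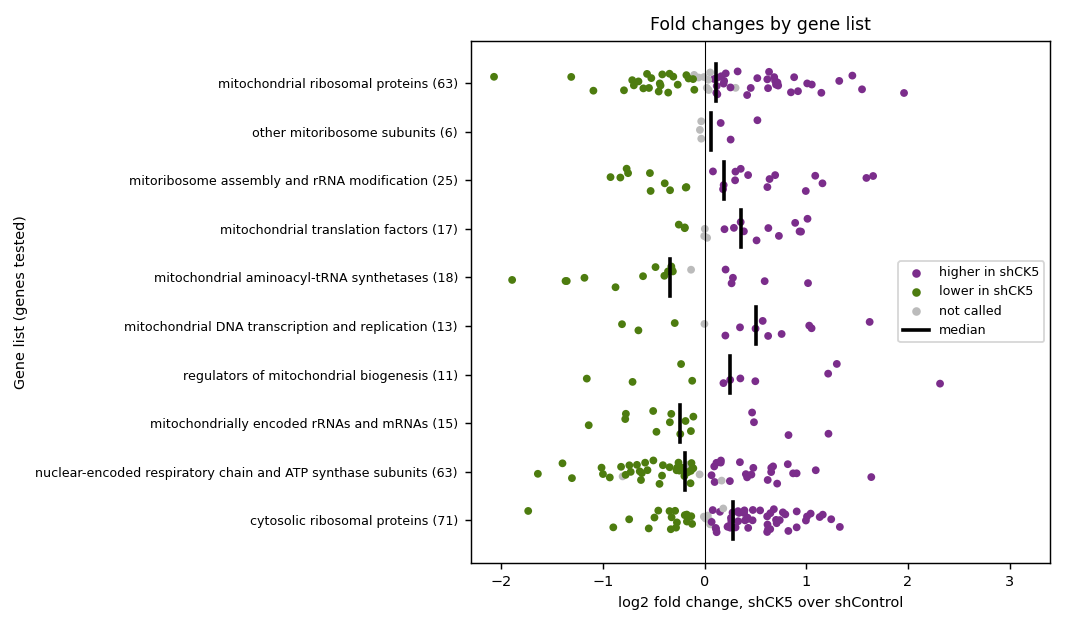
Log2 fold change (shCK5 over shControl) of each tested gene by list, with the number tested in brackets. Purple points are higher, green lower and grey not called, and bars are medians. The median of the mitochondrial ribosomal proteins is 0.12 and that of the cytosolic ribosomal proteins 0.27. The list of mitochondrial aminoacyl-tRNA synthetases, which also holds amidotransferase subunits, has a median of -0.34.

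Both neighbouring machines held genes moving each way, as did all genes tested (40.9% higher and 41.7% lower). The 63 nuclear-encoded respiratory chain and ATP synthase subunits tested assemble with the products of the mitochondrial ribosome. Among them 37 were lower (58.7%) and 22 higher (34.9%), with a median of -0.19. They ranged from NDUFB9 at -1.64 and NDUFB7 at -1.40 to NDUFS4 at 1.09 and COX7C at 1.64. Of 71 cytosolic ribosomal protein genes 47 were higher (66.2%) and 18 lower (25.35%), with a median of 0.27. Among them RPS12 was at -0.90, RPL35 at 1.245 and RPL36 at 1.33. The medians of the lists differ, but no test of the difference between lists was made.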

How the data were processed

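RNA sequencing counts of 6 libraries were analysed. The deposited values are whole-number read counts per gene name in 1 table, with no normalization. The authors used cutadapt, STAR, SAMtools and Cufflinks and the build GRCh38, per the submitters' processing notes, without versions. The sources used here do not give the counting program, its annotation, its strand setting or its handling of shared exons and multi-mapped reads, so members that share exons or have pseudogene copies (MRPL45, MRPS31) are uncertain. Of 56505 rows, 27600 had no count in any library.

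Rows were filtered with filterByExpr (minimum count 10) of edgeR 4.0.16 in R 4.3.3 and scaled with TMM, and levels are CPM, counts per 1000000 of the scaled library size. Groups were compared over all genes tested with edgeR's quasi-likelihood test, with no covariate, Benjamini-Hochberg adjustment and calls at 0.05 or below. A positive log2 fold change means higher in shCK5. Lengths, coordinates and shared exons came from GENCODE 29 on GRCh38, which the authors may not have used. Alternatives were other scalings and filters, DESeq2 1.42.0, a replicate block and each library left out. The members and lists were chosen with earlier results of these data known. Members named with values are the 8 largest and 8 smallest fold changes among those called, those without usable counts, the MRPS18 paralogs, the 3 highest and 3 lowest levels per length and members with a stated role; for each list, the 2 largest and 2 smallest fold changes called. Some genes that these rules would name are not reported here.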

Additional observations from a re-analysis of the deposited data

How the results depend on the processing

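Over 13 alternative settings, 42 of the 55 called members kept their call and direction in every setting, and no member was called in the opposite direction. The other 13 were MRPS18C, MRPL44, MRPL51, MRPL48, MRPS22, MRPL57, MRPL1, MRPS5, MRPS18A, MRPL42, MRPL23, MRPS31 and MRPS14, with log2 fold changes between -0.18 and 0.21. Under library size alone the members' median reversed to -0.02083, and log2 fold changes reversed for MRPS18A (-0.01135), MRPL11 (-0.09587), MRPS22 (-0.04374), MRPL9 (-0.1146), MRPL36 (-0.1012) and MRPL28 (-0.08161). That scaling also reversed the called members MRPL57, MRPL1 and MRPS5. It also called 6 genes of the translation factor list and 3 of the 6 further genes listed with the ribosome lower. It called lower 7 of the 8 members that were not called in the main fit, all but MRPL46. With a filter of at least 1 CPM in 3 libraries the median moved to 0.07387, and the values of MRPL11 (-0.001093), MRPL9 (-0.01972) and MRPL36 (-0.006461) reversed. That filter also called 3 of the 6 further genes listed with the ribosome lower. MRPL16, at -0.006667, became positive with RLE size factors (0.002467), without a filter (0.008063), with DESeq2 (0.002471) and without shCK5 replicate 1 (0.02097), shCK5 replicate 2 (0.001679) or shControl replicate 3 (0.008715); over all libraries left out its values ran from -0.01238 to 0.02097. Leaving out each library in turn gave 30 to 32 members higher, 19 to 23 lower and a median of 0.09603 to 0.1356. DESeq2 called 31 higher and 21 lower. The replicate number as a block gave 31 higher and 23 lower. Same-numbered libraries deviated with correlations of 6.04e-05, -0.01053 and -0.00452, so no shared deviation was seen. These values do not tell whether same-numbered libraries were prepared together. The correlation with 5 neighbours on each side, chosen after seeing the data, was 0.5541. The cause of these shifts was not tested. MRPL46 and MRPS2 had low counts and the widest intervals of the tested members. Both share exon bases with other genes, and the cause of their low counts was not tested.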

Other observations

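The table also holds 75 rows named as pseudogenes of mitochondrial ribosomal protein genes. Of these, 58 had no count in any library and 2 had more than 100 counts in all, MRPL45P2 with 3017 and MRPS31P2 with 202.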
